A study of Mus musculus with 27 samples.

Results

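Early neuroblasts (ENB) of the adult mouse subventricular zone (SVZ) were examined through the mRNA that came down with their tagged ribosomes, set against the same immunoprecipitation from subventricular tissue without the tag. The members are 5 of the 27 libraries of the study, chosen by their labels alone: 2 ENB ribosome-bound libraries and 3 subventricular background controls without HA. Its stages are neural stem cells (NSC) and the early neuroblasts of that zone, then late neuroblasts (LNB) and neurons, both taken from the olfactory bulb (OB). It measured total mRNA of sorted cells and ribosome-bound mRNA of whole tissue at each stage.

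The 2 ENB libraries came from male DiCRY mice, which carry Dcx-CreER, the RiboTag allele Rpl22.HA and an eYFP reporter. CreER is a recombinase that acts only after tamoxifen, and here its expression was driven by Dcx, so the tag marks cells that had Dcx expression at the time of tamoxifen together with cells that descend from them. All mice were 8 to 12 weeks old, on a C57BL/6 background, and were given 200 mg/kg tamoxifen by gavage, 2 to 3 doses in all. The control libraries are labelled as a cell mixture without HA. The description of control replicate 1 names the TiCRY line, in which Tlx (Nr2e1) drives CreER, and those of control replicates 2 and 3 carry the mark Cre-. The genotypes of the control mice are not spelled out beyond this, so a difference between lines and the presence of the tag cannot be told apart here. The 2 NSC ribosome-bound libraries used below come from TiCRY tissue of the same zone, and the 3 LNB libraries from DiCRY olfactory bulb, with 3 bulb controls of their own. ENB replicates 1 and 2 share their animal numbers with LNB replicates 1 and 2. How many mice went into each immunoprecipitate is not stated, and the p-values below measure the spread between libraries.

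In RiboTag mice Cre swaps the last exon of Rpl22, a protein of the large ribosomal subunit, for one that encodes an HA epitope, and an antibody against HA then pulls down ribosomes of the recombined cells with the mRNA they hold. Because whole tissue is homogenised, mRNA of all other cells also reaches the beads in part, and a pull-down from tissue without HA measures that background. Early neuroblasts are the migrating daughters of adult neural stem cells. They express Dcx, a microtubule-binding protein needed for migration, and interneuron fate factors such as Dlx2 and Sp8, and they travel in chains toward the olfactory bulb, where they become GABA-releasing interneurons.

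The libraries held 6830098 and 6621401 counts in ENB and 5960357, 6060242 and 6625770 in the controls. Across genes the rank correlation (Spearman) between the 2 ENB libraries was 0.943, and between pairs of controls it was 0.936 to 0.977. ENB replicate 1 correlated with control replicates 2 and 3 at 0.954 and 0.946, above its value with ENB replicate 2, whereas ENB replicate 2 correlated with the 3 controls at 0.908 to 0.937. The libraries carry different second index barcodes, and the only pair that shares one is ENB replicate 2 and control replicate 1. Values for that pair are given beside the main results as the within-barcode difference, on the log2 scale of CPM plus 0.5 (CPM are counts scaled to the size of each library). Of the ENB libraries, replicate 2 had the larger median difference over the neuroblast genes described below (0.77 against 0.46). Control replicate 1 had the highest summed ribosomal protein level of the controls (39336 CPM). The pair therefore differs from the main comparison in its libraries as well as in sharing a barcode.

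Of 19066 genes tested by edgeR's quasi-likelihood test, 290 (1.52%) passed an adjusted p of 0.05 between ENB immunoprecipitate and subventricular control, 135 higher (0.708%) and 155 lower (0.813%). When 63 genes that overlap ribosomal RNA were left out before scaling, the split was 189 higher and 126 lower. Of the 135 higher genes 23 belong to the 3 lists of neuroblast genes described below, and of the 155 lower genes 65 encode cytosolic ribosomal proteins. In a bulk pull-down, fewer cells of a type and less RNA per cell cannot be told apart. The calls rest largely on ENB replicate 2. When it was left out, 1 gene was called, Sgk1, with 1738 genes at an unadjusted p under 0.05. The count was 193 without ENB replicate 1 and 170 without control replicate 3.

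Dcx (ENSMUSG00000031285, chromosome X, 143855842 to 143933396 in GRCm38), whose regulatory sequence drives CreER in these mice, stood at 173 and 435 CPM in the 2 ENB libraries and at 33.7, 58.6 and 46.7 CPM in the 3 controls. Both ENB libraries lay above all controls, and ENB replicate 2 lay well above ENB replicate 1. The log2 fold change was 2.71 ± 0.35, with an adjusted p of 0.0014, and the within-barcode difference was 3.67. For all fold changes here the standard error is derived from edgeR's test. It is the size of the log2 fold change divided by the square root of the F statistic. Without ENB replicate 2 the adjusted p was 0.071.

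Sp8 (ENSMUSG00000048562, chromosome 12, 118846288 to 118852578), a zinc finger factor of bulb interneurons, was at 38.5 and 125 CPM in ENB and 2.29, 8.72 and 4.31 CPM in the controls. Sox4 (ENSMUSG00000076431, chromosome 13, 28948919 to 28953699), a SoxC factor of immature neurons, was at 160.4 and 441 against 25.1, 32.6 and 19.4 CPM. For both genes the lower ENB library was several times the highest control, so the groups did not overlap. Sp8 rose by 3.99 ± 0.62 (adjusted p = 0.0036) and Sox4 by 3.55 ± 0.45 (adjusted p = 0.0014), with within-barcode differences of 5.49 and 4.11. Without ENB replicate 2 their adjusted p were 0.1 and 0.062. The 3 marker genes of the label therefore lay above background in both ENB libraries.

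**Figure D1:**
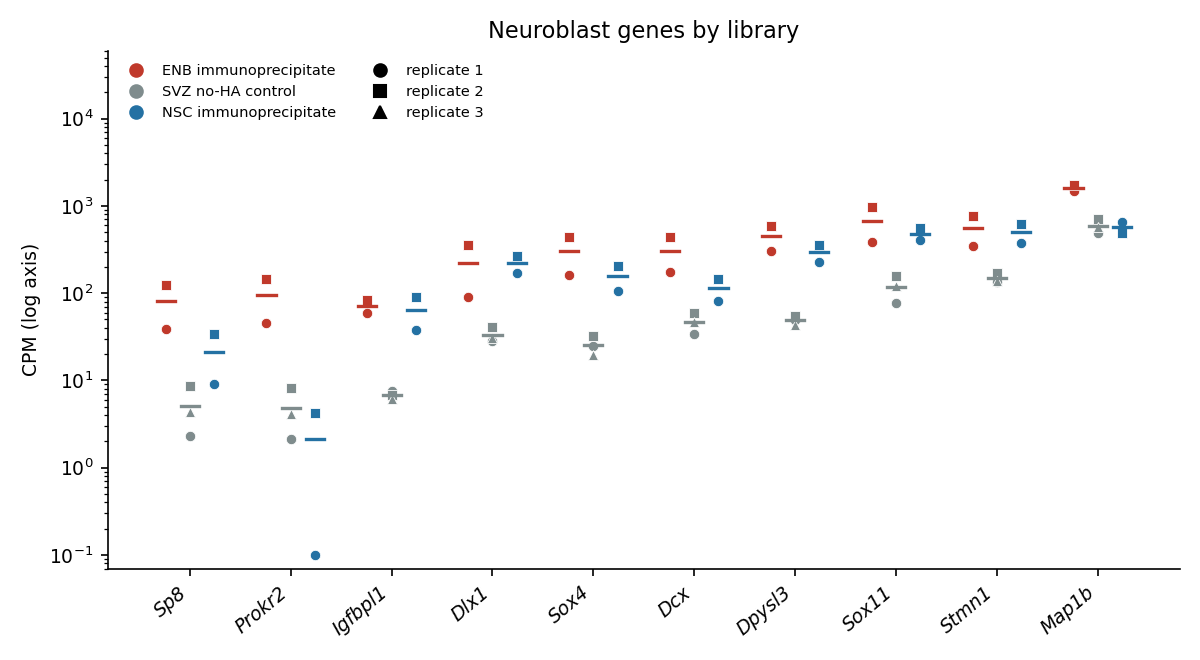
Level of 10 neuroblast genes in each library, in CPM on a log axis, for the ENB immunoprecipitate (2 libraries), the subventricular control (3) and the NSC immunoprecipitate (2). Symbols are replicates, short lines are group means, and a library at 0 is drawn at 0.1 CPM. Each gene has both ENB libraries above all 3 controls, and Prokr2 is at 0 in NSC replicate 1.

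Among 24 tested transcription factors of neuroblasts and their progenitors, 8 rose and 1 fell, with a median log2 fold change of 0.74 beside -0.04 over all genes tested. The homeobox fate factors Dlx1 and Dlx2 rose by 2.74 ± 0.39 and 2.50 ± 0.40, from 28.5, 41.5 and 30.4 to 90.8 and 357 CPM and from 7.37, 13.5 and 22.7 to 52.8 and 112 CPM. Sox11, the other SoxC factor of young neurons in the list, rose by 2.50 ± 0.41. The Sp8 relative Sp9 followed at 1.57 ± 0.29, the ETS factor Etv1 at 1.16 ± 0.24 and the zinc finger protein Zfp704 at 1.32 ± 0.29. Their adjusted p ran from 0.0027 for Dlx1 to 0.03 for Zfp704.

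Other interneuron factors of the list did not pass the test. Dlx5 was at 1.14 ± 0.37 (adjusted p = 0.16). Meis2, which striatal neurons also express, was at 633 and 811 CPM in ENB and 791, 814 and 1056 CPM in the controls, with overlapping groups. Pax6, a factor of the dopaminergic periglomerular fate, was at 18.1 and 15.9 against 27.2, 27.8 and 11.1 CPM and overlapped too. The gene that fell was Neurod1, a proneural factor of excitatory lineages, which had no count in either ENB library and 0.819, 3.06 and 1.15 CPM in the controls. Against a floor of 3 counts over the ENB group it was at least 7.51-fold lower (adjusted p = 0.03), a difference that rests on few counts.

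The cytoskeleton and migration list had the highest share of calls among the neuroblast lists, 11 of 25 higher and 0 lower, with a median of 0.86. For lower calls in it, 0 genes had an unadjusted p under 0.05 and DESeq2 called 0. The collapsin response mediators, which couple guidance cues to microtubules, rose together: Dpysl3 by 3.18 ± 0.37, Dpysl5 by 1.67 ± 0.26, Crmp1 by 1.57 ± 0.28 and Dpysl2 by 1.72 ± 0.34. Dpysl3 stood at 307 and 588 CPM in ENB and 49.3, 55.2 and 43.2 CPM in the controls, a separation without overlap. Marcksl1, a membrane protein that binds actin, rose by 3.14 ± 0.43 from 43.6, 19.6 and 15.6 to 146 and 318 CPM.

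Tubulins and their partners were part of the same list. The neuronal tubulins Tubb2b, Tuba1a and Tubb3 rose by 2.01 ± 0.41, 1.77 ± 0.41 and 1.77 ± 0.41. Stmn1, a tubulin-binding protein, rose by 1.92 ± 0.34, and Map1b, a microtubule-associated protein of growing neurites, by 1.45 ± 0.26. Map1b was at 1483 and 1743 CPM in ENB and 485, 711 and 575 CPM in the controls. Tubulin genes share sequence, so counts may be split between them. Mapt, the gene of the axonal protein tau, overlapped with the controls, at 538 and 556 against 533, 550.3 and 566 CPM. Gap43, a growth cone protein, was at 301 and 297 against 368, 337 and 459 CPM, below all controls, and did not pass the test.

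Of 24 surface, guidance and polysialic acid genes 4 rose and 0 fell, with a median of 0.46. At an unadjusted p under 0.05, 10 were higher and 1 lower, and DESeq2 called 6 higher and 0 lower. Prokr2 (ENSMUSG00000050558, chromosome 2, 132369705 to 132385502) encodes a receptor for prokineticin, a chemoattractant of neuroblasts in the bulb. It stood at 45.6 and 145 CPM in ENB and 2.13, 8.26 and 4.16 CPM in the controls, a rise of 4.29 ± 0.64 (adjusted p = 0.0028) with a within-barcode difference of 5.79. Igfbpl1, a secreted insulin-like growth factor binding protein, had 59.8 and 83.2 against 7.53, 6.88 and 6.17 CPM, with ENB libraries close to each other and far above the controls. It rose by 3.38 ± 0.44.

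Cd24a, a surface antigen used to sort neuroblasts, rose by 1.94 ± 0.41, and Ncam1, the carrier of polysialic acid, by 1.29 ± 0.29. St8sia2, one of the enzymes that make polysialic acid, was at 57.0 and 66.4 CPM in ENB and 24.2, 28.1 and 30.9 CPM in the controls. Its groups did not overlap, but it did not pass the test, at 1.15 ± 0.63 (adjusted p = 0.43). The neuregulin receptor Erbb4 was at 1.00 ± 0.28 (adjusted p = 0.093), and the guidance receptors Plxna4 and Robo2 at 1.03 ± 0.29 and 0.77 ± 0.27 (adjusted p = 0.1 and 0.2). Robo1, a second Slit receptor, lay at -0.75 ± 0.35 (adjusted p = 0.35).

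Over the 3 neuroblast lists together 23 of 73 tested genes rose and 1 fell, and the median log2 fold change was 0.67. In 43 of the 73 both ENB libraries lay above all controls, against 15.2% of all genes tested, and in 4 both lay below all controls, against 16.6%. All gene lists here were chosen with earlier results of these data known, which limits such comparisons of shares. The median difference from the control mean was 0.46 in ENB replicate 1, 0.77 in ENB replicate 2 and 0.89 for the within-barcode pair. Their summed level was 16856 and 24521 CPM in ENB and 10014 to 10913 CPM in the controls. Without ENB replicate 2, edgeR called 0 of the 73 higher, with 27 at an unadjusted p under 0.05, and without control replicate 1 or 3 it called 15. With the second barcode as a term it called 12.

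Several genes outside these lists were among the largest changes. Dusp4, a phosphatase of MAP kinases, was at 19.4 and 25.5 CPM in ENB and 0, 0.612 and 1.00 CPM in the controls, with control replicate 1 at 0, and rose by 5.30 ± 0.90 (adjusted p = 0.0054). The ubiquitin ligase gene Trim67 rose by 3.06 ± 0.39 and the membrane protein gene Islr2 by 2.96 ± 0.67. Esr1, the oestrogen receptor gene, rose by 3.55 ± 0.76, from 0, 6.73 and 1.29 to 21.6 and 41.7 CPM. CreER carries a part of an oestrogen receptor, and transcripts of the transgene and of the endogenous gene cannot be told apart in these counts. Sgk1, a kinase induced by glucocorticoids, was at 321 and 183 CPM in ENB and 68.8, 57.5 and 61.7 CPM in the controls. It rose by 2.01 ± 0.29 and was the gene that kept its call without ENB replicate 2 (adjusted p = 0.034).

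Rpl22 itself, the gene that carries the tag, was at 32.0 and 19.9 CPM in ENB and 43.1, 54.0 and 49.1 CPM in the controls, a difference of -0.91 ± 0.27 (adjusted p = 0.12). Both ENB libraries lay below all controls. These counts do not separate tagged from untagged transcripts. Nr2e1, a stem cell factor and the source of the TiCRY driver, was at 21.7 and 15.3 against 25.4, 9.94 and 18.7 CPM with overlapping groups (0.04 ± 0.65, adjusted p = 0.99).

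Sorted early neuroblasts, measured as total mRNA in 3 libraries that share no library with the pull-down, give the level of the same genes in TPM, which are scaled to transcript length and library size. Dcx was at 194, 324 and 232 TPM there, Sp8 at 73.7, 64.8 and 73.7 TPM and Prokr2 at 29.5, 28.3 and 41.0 TPM. In sorted stem cells the same 3 genes were at 41.2, 30.6 and 27.8, at 11.0, 5.66 and 7.28 and at 5.09, 1.53 and 2.18 TPM, each below all 3 early neuroblast libraries. Of the 135 genes higher in the pull-down, 132 (97.8%) had at least 1 TPM in every sorted ENB library, beside 132 of the 155 lower genes (85.2%) and 11492 of all 19066 tested (60.3%). Those shares were not tested, and the median level was 93.1 TPM for the higher genes, 388 TPM for the lower genes and 6.00 TPM for all genes tested.

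Of 18 genes of GABA signalling and bulb interneuron subtypes 0 passed the test in either direction, beside 1.52% of all genes tested. That share is too small for 0 calls to set a list of this size apart. The list median was 0.22, which was -0.10 with the second barcode as a term. At an unadjusted p under 0.05 there were 3 higher and 0 lower, and DESeq2 called 0. Gad1 and Gad2, the enzymes that make GABA, were at 384 and 326 and at 402 and 433 CPM in ENB and at 421, 342 and 296 and at 385, 359 and 327 CPM in the controls. Th and Calb2, subtype genes of bulb interneurons, were at 3.62 and 4.76 and at 4.32 and 10.2 CPM in ENB, and both overlapped with the controls.

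Division genes lay above the controls without passing the test in most cases. Of 25 DNA replication genes 2 rose, the helicase subunits Mcm6 and Mcm5, by 2.33 ± 0.45 and 2.15 ± 0.46, and the list median was 0.97. DESeq2 called 5 higher, and 12 of the 25 were higher at an unadjusted p under 0.05. The median was 0.49 without ENB replicate 2 and 1.30 without control replicate 2. Mcm6 was at 36.2 and 56.6 CPM in ENB, 8.03, 12.2 and 7.32 CPM in the controls and 127 and 160.4 CPM in NSC. Of 25 mitosis genes 0 passed, beside 1.52% of all genes tested, with a median of 1.33. In 18 of them both ENB libraries lay above all controls, against 15.2% of all genes tested. At an unadjusted p under 0.05, 7 of the 25 were higher, and DESeq2 called 4. Top2a, which untangles DNA in mitosis, was at 75.4 and 52.2 against 18.0, 24.6 and 19.1 CPM (1.63 ± 0.40, adjusted p = 0.057), and Mki67, a proliferation antigen, at 4.04 and 14.7 against 9.66, 23.6 and 19.2 CPM with overlapping groups.

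**Figure D2:**
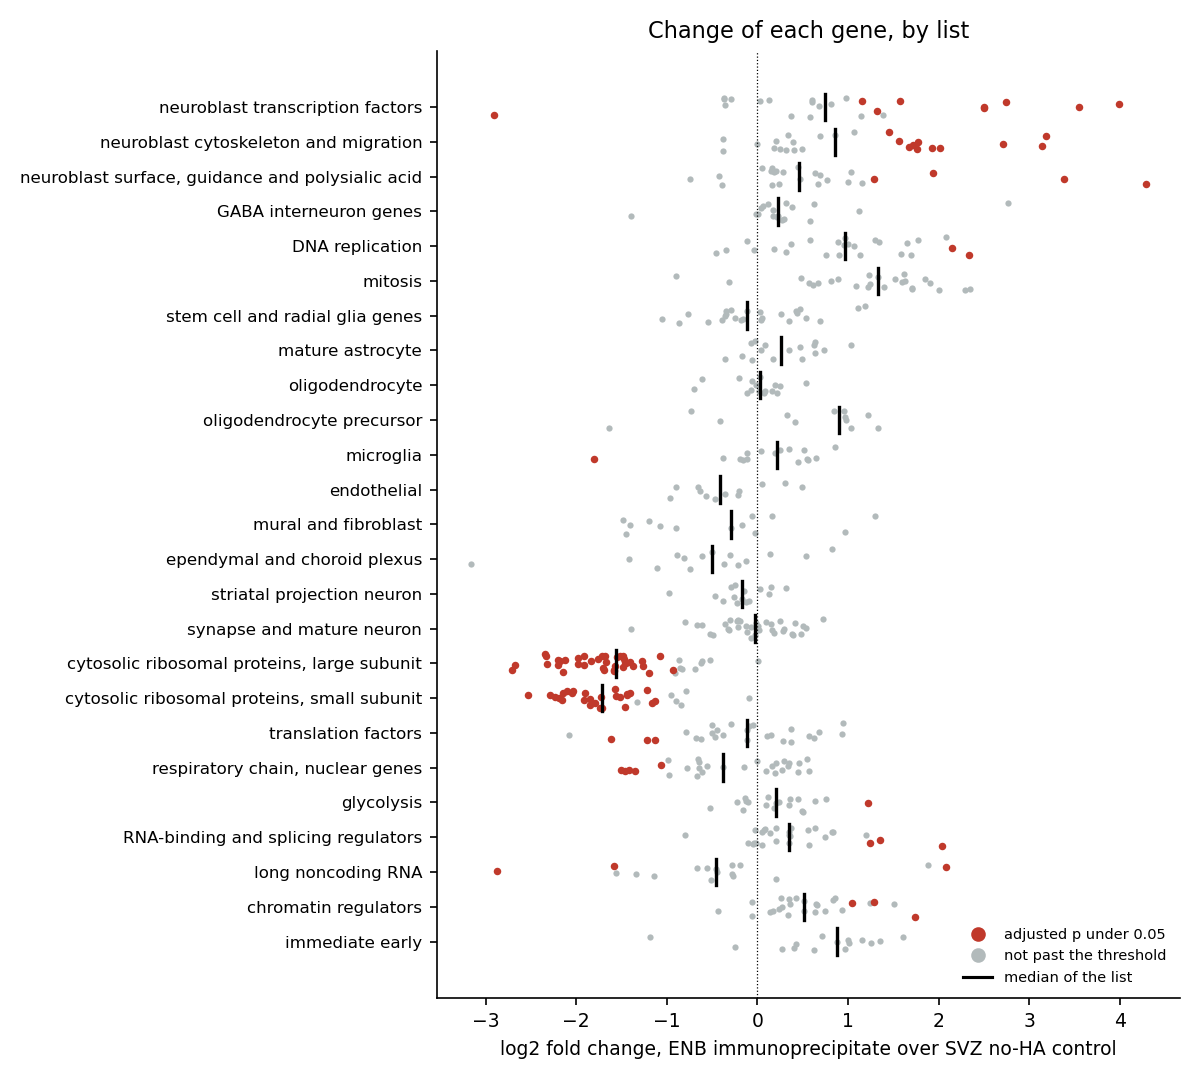
Log2 fold change of each tested gene between ENB immunoprecipitate and subventricular control, by gene list. Red points have an adjusted p under 0.05, grey points do not, black bars are list medians, and genes with no count in ENB are drawn at their bound. The ribosomal protein lists lie almost wholly below 0, with medians of -1.56 and -1.72, and the cytoskeleton list has 11 red points above 0.

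Stem cell and radial glia genes had a median of -0.12, with 0 of 25 passing the test, beside 1.52% of all genes tested. The median ranged from -0.21 without ENB replicate 1 to 0.06 without ENB replicate 2 or control replicate 1, and was -0.0011 without control replicate 3. At an unadjusted p under 0.05, 2 were higher and 2 lower, and DESeq2 called 0. Egfr, the growth factor receptor of activated stem cells, was at 14.9 and 13.4 CPM in ENB, 19.5, 19.6 and 16.5 CPM in the controls and 103 and 93.6 CPM in NSC. Slc1a3, a glutamate transporter of astrocytes and stem cells, was at 485 and 457 CPM in ENB, 372, 368 and 301 CPM in the controls and 1326 and 1871 CPM in NSC, and did not pass over the controls (adjusted p = 0.51). Notch1, the receptor that keeps stem cells undifferentiated, was at 64.9 and 58.2 CPM in ENB, below the 74.9, 135 and 173 CPM of the controls, without passing the test (adjusted p = 0.22).

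Markers of other cells of the tissue were also present in the pull-down. The 16 oligodendrocyte genes summed to 21460 and 20868 CPM in ENB and to 18861 to 23514 CPM in the controls, with 0 called and a median of 0.02. Striatal projection neuron genes summed to 9698 and 9596 against 9290 to 11329 CPM, and synapse genes to 15716 and 13505 against 13854 to 15128 CPM. The medians of these 2 lists were -0.17 and -0.02, and 0 of 15 and 0 of 38 genes passed, beside 1.52% of all genes tested. With the second barcode as a term the oligodendrocyte, striatal and synapse medians were -0.49, -0.42 and -0.23. With 1 library left out, the oligodendrocyte median ranged from -0.03 without ENB replicate 1 to 0.15 without control replicate 2. The striatal median was -0.06 without control replicate 3, and the synapse median ranged from -0.18 without ENB replicate 1 to 0.14 without ENB replicate 2.

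Other glial and vascular lists gave 1 call, where 1.52% of all genes tested passed. Mature astrocyte genes had a median of 0.26, endothelial genes of -0.41, mural and fibroblast genes of -0.30 and ependymal and choroid plexus genes of -0.50, all with 0 called. With the second barcode as a term the astrocyte median was -0.32 and the mural median 0.08. Without control replicate 2 the ependymal median was -0.0051 and the mural median -0.15, and the mural median was -0.53 without ENB replicate 1 and -0.45 without control replicate 1. The endothelial median was -0.14 without ENB replicate 2, and the astrocyte median 0.41 without control replicate 1 and 0.15 without control replicate 3.

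Oligodendrocyte precursor genes had a median of 0.90 with 0 of 12 called, beside 1.52% of all genes tested. In 7 of the 12 both ENB libraries lay above all controls, against 15.2% of all genes tested. The median was 0.18 with the second barcode as a term. Pdgfra, their growth factor receptor, was at 54.3 and 51.2 CPM in ENB and 30.5, 23.1 and 14.6 CPM in the controls (1.21 ± 0.36, adjusted p = 0.12), and its groups did not overlap. Of 16 microglia genes 1 fell, the adaptor Tyrobp, at -1.81 ± 0.41, whereas the growth factor receptor Csf1r was at 239 and 179 against 129.7, 119 and 97.6 CPM. Over these lists together with the oligodendrocyte, striatal and synapse lists, unadjusted p under 0.05 gave at most 4 genes of a list in one direction, and DESeq2 called at most 2. Summed precursor genes lay above all controls, at 827 and 747 against 621 to 699 CPM. Ependymal genes lay below all controls, at 112 and 128 against 154 to 173 CPM, and so did mural genes, at 295 and 289 against 308 to 445 CPM. The part of these cell types in the results was not tested. Blood genes summed to 91.5 and 14.0 CPM in ENB and 22.5 to 39.1 CPM in the controls.

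**Figure D3:**
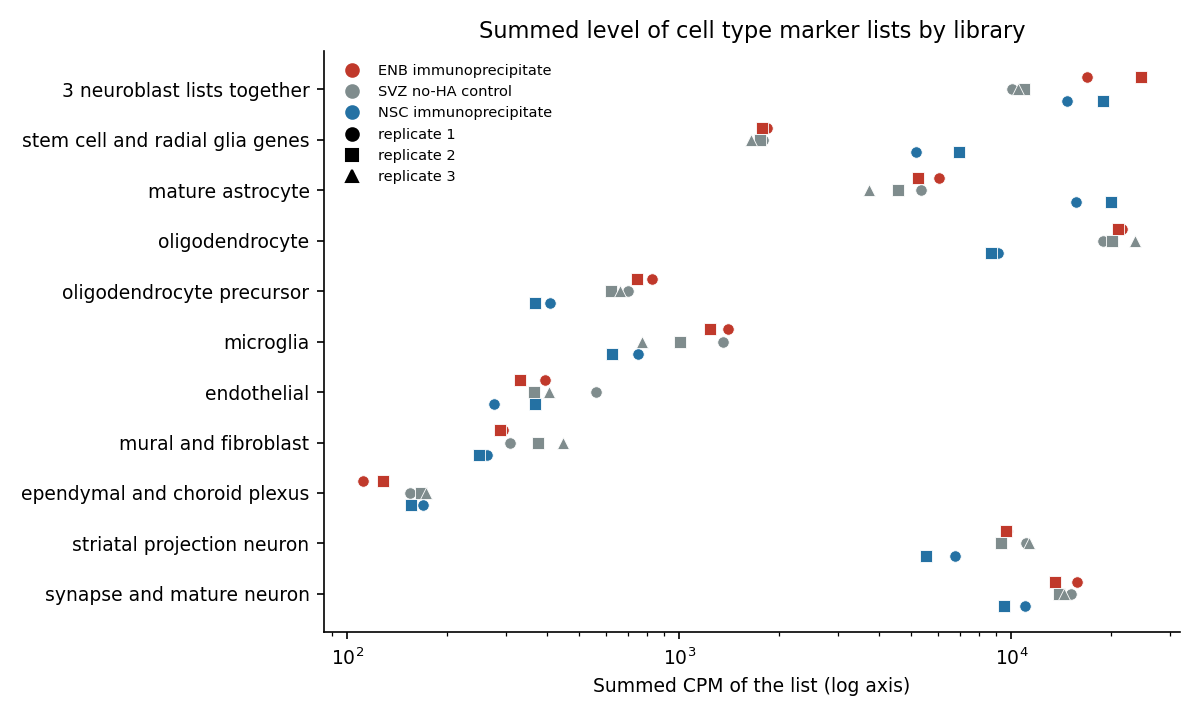
Summed level of each cell type marker list by library, in CPM on a log axis, for ENB, control and NSC libraries; symbols are replicates. Neuroblast lists are higher in ENB than in the controls, whereas the oligodendrocyte list, at 20868 and 21460 CPM in ENB, lies within the control range of 18861 to 23514 CPM.

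On the lower side the list with the most calls was that of cytosolic ribosomal proteins, the building blocks of the ribosome itself. Of 48 tested genes of the large subunit 38 fell and 0 rose, and of 33 of the small subunit 27 fell and 0 rose, with medians of -1.56 and -1.72. At an unadjusted p under 0.05 there were 0 higher genes in both lists, and DESeq2 called 0 higher and 43 and 32 lower. These mRNAs are known to begin with a C followed by a run of pyrimidines at the transcript start, the TOP motif, through which mTOR signalling controls their translation. The genomic windows around the RefSeq starts of some of them are shown for that reason, beside those of neuroblast genes that rose. Each runs from 15 bases before the annotated start to 15 bases from it on, on the strand of the gene, from RefSeq on GRCm38.p6, and capitals mark the nearest run of a C followed by at least 4 C or T that begins within 5 bases of the start. The ribosomal protein genes are those with the largest fall among the genes called lower that have such a run.
Rpl39 (chrX:37085208-37085237, minus strand): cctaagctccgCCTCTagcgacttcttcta
Rpl38 (chr11:114668565-114668594, plus strand): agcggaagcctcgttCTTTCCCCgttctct
Fau (chr19:6057932-6057961, plus strand): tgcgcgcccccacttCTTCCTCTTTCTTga
Rpl31 (chr1:39367836-39367865, plus strand): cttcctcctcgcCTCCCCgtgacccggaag
Rps27 (chr3:90213634-90213663, minus strand): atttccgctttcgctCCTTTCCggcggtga
Rps24 (chr14:24490663-24490692, plus strand): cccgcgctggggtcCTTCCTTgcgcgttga
Dcx (chrX:143933110-143933139, minus strand): tcagacaacaaaggcatagagagattggtt
Sp8 (chr12:118846314-118846343, plus strand): ccaaggggcaaacacaCCTCCTCCaggacg
Sox4 (chr13:28953685-28953714, minus strand): aggcggaattggggtctgctctaagctgca
Sox11 (chr12:27342704-27342733, minus strand): acgagttgagagagagCCCTCaactttttg
Such a run was found in 32 of 71 windows of ribosomal protein genes (45.1%), in 6027 of 32851 windows of all genes (18.3%) and in 14 of 66 windows of the neuroblast lists (21.2%). On the opposite strand the shares were 15.5%, 21.7% and 28.8%. The windows cover 60 of the 81 ribosomal protein genes and 49 genes of the neuroblast lists. Of the neuroblast genes shown, Sp8 and Sox11 have such a run and Dcx and Sox4 do not. A match is a property of the annotated start and no measurement of the transcripts in these libraries.

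Rpl39 (ENSMUSG00000079641, chromosome X, 37082518 to 37085222), a small protein of the large subunit, had 29.5 and 28.1 CPM in ENB and 252, 225 and 89.7 CPM in the controls, and fell by 2.71 on the log2 scale (standard error 0.40, adjusted p = 0.0028). Rpl38, another small protein of that subunit, had 37.3 and 27.96 against 247, 253 and 127 CPM. Rps15, a protein of the small subunit, had 160.1 and 163 against 958, 698 and 632 CPM. In each of the 3 genes both ENB libraries lay below every control, and control replicate 1 was the highest or next to the highest. The within-barcode differences were -3.14, -3.12 and -2.55.

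Other members with large changes were Rps12 at -2.54 ± 0.37, Rpl37a at -2.34 ± 0.32, Rpl36a at -2.34 ± 0.35, Rpl30 at -2.32 ± 0.38 and Rps28 at -2.29 ± 0.36, with adjusted p between 0.0023 and 0.0045. Fau, which encodes a small-subunit protein fused to a ubiquitin-like domain, was at -2.19 ± 0.34. Ribosomal protein genes have many processed copies in the genome, so how the authors' counting assigned shared reads can affect single genes.

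Over both subunits 65 of 81 genes fell, and in 77 of them both ENB libraries lay below all controls, against 16.6% of all genes tested. Their summed level was 9602 and 10219 CPM in ENB and 39336, 26258 and 23320 CPM in the controls. The median difference from the control mean was -1.60 in ENB replicate 1 and -1.54 in ENB replicate 2, so the 2 libraries gave close values. It was -2.02 for the within-barcode pair. The calls depended on both libraries. Without ENB replicate 2 the median was -1.59 and 0 genes were called by edgeR, with 75 lower at an unadjusted p under 0.05. Without ENB replicate 1 the median was -1.56 and 28 genes were called.

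Set beside the other pull-downs, the same 81 genes had a median of -0.04 in NSC over the same subventricular controls, with 7 higher and 5 lower against 8.75% and 6.59% of all genes. In LNB over the bulb controls, where 10.1% of all genes passed, their median was 0.10, with 6 higher against 7.0% of all genes. Their summed level was 26663 and 28854 CPM in NSC, within the range of the subventricular controls. In LNB it was 14478, 16712 and 13022 CPM, beside 12739, 11816 and 15713 CPM in the bulb controls. Every LNB and bulb control library lay above both ENB libraries and below every subventricular control.

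**Figure D4:**
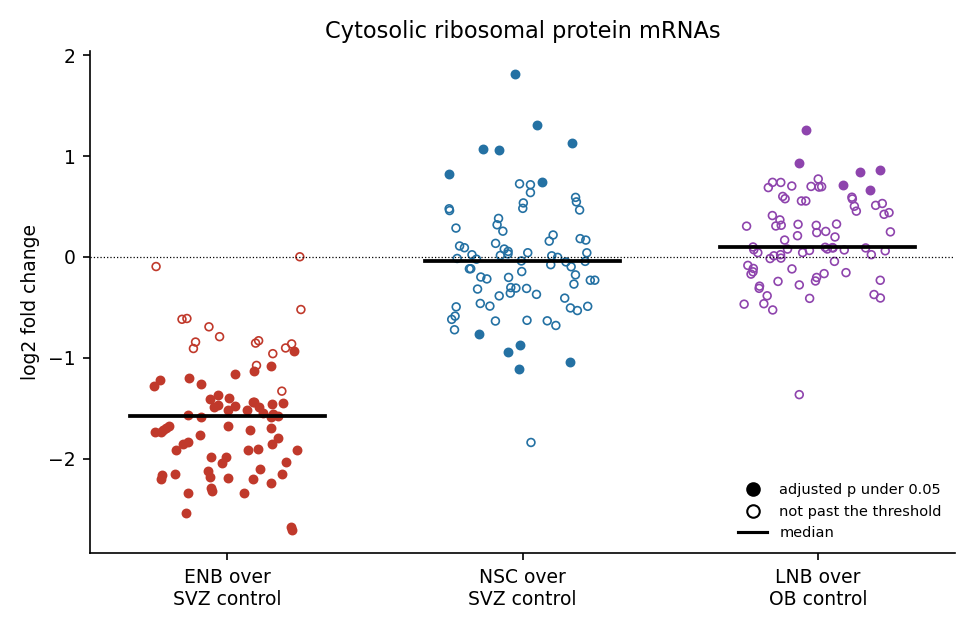
Log2 fold change of the 81 cytosolic ribosomal protein mRNAs in ENB and NSC over the subventricular control and in LNB over the bulb control. Filled points have an adjusted p under 0.05, open points do not, and bars are medians. The ENB median is -1.58, and the NSC and LNB medians are -0.04 and 0.10.

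Ribosomal protein mRNAs are short, and the median of other short mRNAs also lay below 0. A relative transcript length, taken after these results were seen from the deposited expected counts divided by TPM, was available for 16121 genes. Of the 81 ribosomal protein genes 63 lay among the shortest 10% of genes. Among the other 1550 genes of that bin the median log2 fold change was -0.49, with 47 lower (3.03%) and 2 higher. The corresponding medians in NSC and LNB were -0.23 and -0.27, beside -0.14 and -0.08 over all genes tested. In the longest 10% of genes the medians were 0.07 in ENB, -0.29 in NSC and -0.02 in LNB. The ribosomal protein genes of the same bin had a median of -1.71, with 54 of 63 lower. Among the next 10% the medians were -1.26 for 14 ribosomal protein genes and -0.19 for 1598 others. The part of transcript length in the fall of single genes was not tested.

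**Figure D5:**
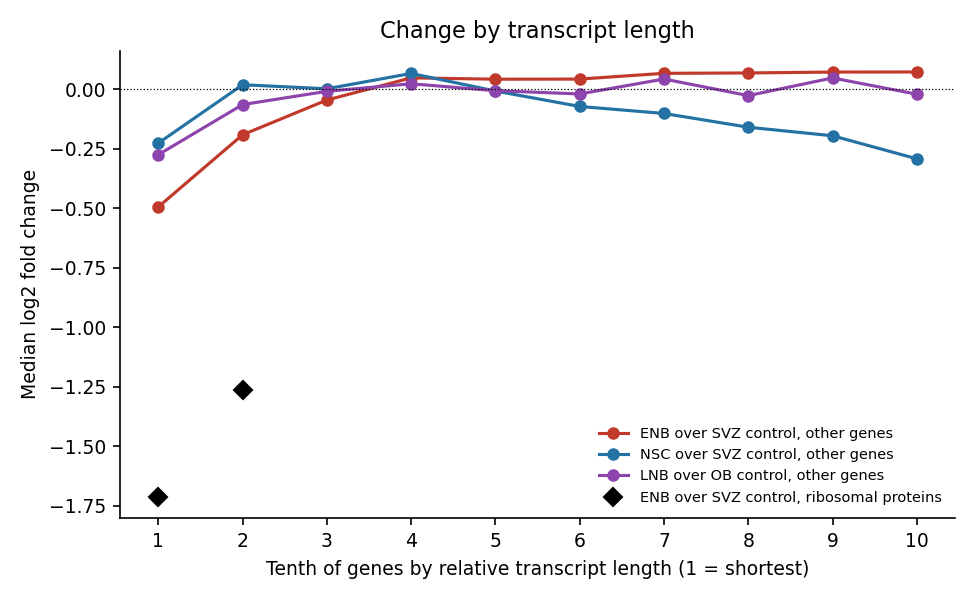
Median log2 fold change in 10 equal bins of genes ordered by relative transcript length, for genes without ribosomal proteins in ENB and NSC over the subventricular control and in LNB over the bulb control, with the ENB medians of ribosomal protein genes as diamonds where at least 10 lie in a bin. The shortest bin is at -0.49 in ENB, and the diamonds are at -1.71 and -1.26.

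Other genes of protein synthesis and energy supply gave fewer calls. Of 27 translation factors 3 fell, the elongation factor Eef1b2 at -1.62 ± 0.21, Tpt1, which carries a TOP start, at -1.22 ± 0.24 and the initiation factor subunit Eif3f at -1.13 ± 0.23, and the list median was -0.12. It was -0.40 without ENB replicate 2, -0.29 without control replicate 2 and -0.31 without control replicate 3. Eef1a1, the main elongation factor, was at 1579 and 1542 CPM in ENB and 2798, 2397 and 2298 CPM in the controls without passing (adjusted p = 0.18), although the groups did not overlap. Of 29 nuclear genes of the respiratory chain 5 fell, Cox8a, Ndufa2, Cox7c, Ndufa1 and Cox5b, by between 1.07 and 1.51 on the log2 scale, and the list median was -0.38. Without control replicate 1 that median was 0.16, so the sign of the list as a whole rested on that library. Of 19 glycolysis genes 1 rose, the hexokinase Hk1, by 1.22 ± 0.24.

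Among noncoding RNAs, the host genes of small nucleolar RNAs Snhg8 and Gas5 fell by 2.88 and 1.59 on the log2 scale. Snhg8 was at 5.43 and 6.63 CPM in ENB and 48.2, 48.0 and 36.9 CPM in the controls, and Gas5 at 132 and 114 against 406, 367 and 335 CPM. Dlx6os1 (ENSMUSG00000090063), a transcript antisense to the interneuron gene Dlx6, rose by 2.08 ± 0.32, from 19.98, 47.6 and 30.001 to 92.8 and 182 CPM. Whether the counting used strand is not given, so reads from Dlx6os1 and from the gene it overlaps cannot be told apart. Of 17 long noncoding RNAs 1 rose and 2 fell, with a median of -0.46, which was -0.02 with the second barcode as a term and -0.28 without ENB replicate 2.

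Of 28 RNA-binding and splicing regulators 3 rose: the neuronal mRNA-binding proteins Elavl4 and Elavl2 by 2.04 ± 0.39 and 1.24 ± 0.24, and Khdrbs1 by 1.36 ± 0.28. Of 26 chromatin regulators 3 rose, the high mobility group genes Hmgb3 and Hmgb2 by 1.74 ± 0.35 and 1.29 ± 0.25 and the DNA methyltransferase Dnmt1 by 1.04 ± 0.22. Hmgb2 was at 68.0 and 100.3 CPM in ENB and 31.3, 44.4 and 27.6 CPM in the controls, beside 444 and 614 CPM in NSC. For lower calls in these lists DESeq2 gave 1 and 0, and 1 and 0 genes had an unadjusted p under 0.05. Immediate early genes had a median of 0.88 with 0 of 15 called, beside 1.52% of all genes tested. Of the 15, 1 was at an unadjusted p under 0.05 and DESeq2 called 0. That median was 0.13 with the second barcode as a term and 0.48 with the replicate block. Their summed level was 1252 and 1024 CPM in ENB and 480.4 to 936 CPM in the controls.

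The largest fall among genes with a name other than a clone name and at least 20 mean CPM in the higher group was that of Lrp1, a receptor for lipoproteins, at 745 and 490.3 CPM in ENB and 4695, 4464 and 10459 CPM in the controls. It fell by 3.40 on the log2 scale (standard error 0.61, adjusted p = 0.0082), and its call was lost without either ENB library (adjusted p = 0.052 and 0.21). In NSC it stood at 4085 and 2115 CPM, above both ENB libraries.

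The question of how the early neuroblast pull-down differs from that of stem cells in the same tissue was addressed by the direct contrast of the 2 ENB and 2 NSC libraries. Since both are set against the same controls, this contrast is also the test of whether the enrichment differs. It gave 1579 of 19066 genes (8.28%), 655 higher (3.44%) and 924 lower (4.85%) in ENB. With RLE scale factors the split was 791 higher and 806 lower, and with expected counts 777 and 721. Leaving out single libraries gave 354 without ENB replicate 1, 522 without ENB replicate 2, 962 without NSC replicate 1 and 639 without NSC replicate 2. ENB and NSC libraries also differ in mouse line, so stage and line cannot be told apart.

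Neuroblast genes differed between the 2 pull-downs in part. Of the 73 genes 13 were higher and 3 lower in ENB, with a median of 0.43. Dcx was higher by 1.42 ± 0.38 (adjusted p = 0.032), at 173 and 435 CPM in ENB and 81.6 and 145 CPM in NSC. Prokr2 differed most, at 0 and 4.24 CPM in NSC, a contrast of 5.43 ± 0.81 (adjusted p = 0.0023). Sp8, at 1.93 ± 0.64, and Sox4, at 0.94 ± 0.48, did not pass (adjusted p = 0.075 and 0.22).

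By role, 8 of 24 surface and guidance genes were higher in ENB than in NSC, among them Erbb4 by 1.52 ± 0.32, Robo2 by 1.46 ± 0.30, the ephrin receptor Epha5 by 1.33 ± 0.25 and the cell adhesion receptor Cxadr by 2.66 ± 0.41. Of the cytoskeleton list 4 of 25 were higher, Map1b and Dpysl2 by 1.51 ± 0.30 and 1.54 ± 0.38, Nav1 by 1.69 ± 0.36 and Dcx as above. Among the transcription factors Zfp704 was higher by 1.90 ± 0.33, and Insm1, a zinc finger factor of neuronal progenitors, was lower, at -2.32 ± 0.64. Dlx1, at 0.03 ± 0.42, and Tubb3, at 0.02 ± 0.46, differed by less than their standard errors. Dusp4 was higher by 3.23 ± 0.90 (adjusted p = 0.038).

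Many stem cell and division genes were lower in ENB than in NSC. They included 18 of 25 stem cell and radial glia genes with a median of -1.99, such as Egfr at -2.79 ± 0.31 and Nr2e1 at -2.89 ± 0.74, which was at 106 and 168 CPM in NSC. Of 25 DNA replication genes 12 were lower and of 25 mitosis genes 5, with Pcna, the sliding clamp of the replication fork, at -2.16 ± 0.27 and the mitotic kinase Cdk1 at -3.02 ± 0.77. Mature astrocyte genes were lower in 9 of 16. Without clone names, the largest falls among genes with at least 20 mean CPM in the higher group were those of Nxn, Notum, Myadml2os, Mfap4 and Prss56, at -6.38 ± 0.90, -6.14 ± 0.87, -6.03 ± 1.02, -5.09 ± 1.08 and -5.08 ± 0.86. The Wnt inhibitor gene Notum was at 0.697 and 2.02 CPM in ENB and 100.4 and 92.9 CPM in NSC.

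Oligodendrocyte genes were higher in ENB than in NSC in 5 of 16 and precursor genes in 3 of 12, with medians of 0.93 and 1.11. The oligodendrocyte list summed to 21460 and 20868 CPM in ENB and to 9113 and 8702 CPM in NSC, below all 3 controls, and its part in the contrast was not tested. Of the 81 ribosomal protein genes 74 were lower in ENB than in NSC, with a median of -1.59. Without clone names, the largest rises among genes with at least 20 mean CPM in ENB, besides Prokr2 and Dusp4, were those of Slco5a1, Hectd4 and Epha10, at 3.53 ± 0.72, 3.53 ± 0.55 and 2.94 ± 0.72. Over the controls these 3 genes were at 0.44 ± 0.54, 1.76 ± 0.45 and 0.10 ± 0.58 in ENB, and none passed.

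The contrast of ENB over the subventricular control with LNB over the bulb control tests whether early and late neuroblast enrichment differ. Its fit did not use the animal numbers that ENB and LNB replicates share. The contrast gave 76 of 19066 genes (0.399%), 6 higher (0.0315%) and 70 lower (0.367%), and 40 of the 70 were ribosomal protein genes. With replicate number as a block it gave 43. Rpl38 differed by -3.05 ± 0.48 and Rpl39 by -2.77 ± 0.50 (adjusted p = 0.028 and 0.033). Summed ribosomal protein levels differed between the subventricular and bulb controls, as given above, and the part of the controls in this contrast was not tested. Rplp2, a stalk protein of the large subunit, Rpl34 and the mitochondrial import gene Timm10 were at -2.58 ± 0.50, -2.46 ± 0.43 and -2.44 ± 0.40. On the higher side were Sgk1 at 2.14 ± 0.40, the complement gene C4b at 2.00 ± 0.41, the caveolar gene Cavin1 at 1.83 ± 0.38 and the carrier gene Slc25a36 at 1.40 ± 0.29.

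In this contrast 0 of the 73 neuroblast genes passed edgeR's test, with a median of -0.21. At an unadjusted p under 0.05, 7 were higher and 10 lower, and DESeq2 called 1 in each direction. Their own values were 23 higher with a median of 0.67 in ENB over its control and 42 higher, against 7.0% of all genes, with a median of 0.98 in LNB over its control. Dcx was at 2.71 ± 0.35 in ENB and 1.64 ± 0.31 in LNB, Igfbpl1 at 3.38 ± 0.44 and 3.85 ± 0.41, and Sp8 at 3.99 ± 0.62 and 1.69 ± 0.51. The calls of this contrast did not hold under all settings: with RLE scale factors, which moved the median of all genes from -0.04 to 0.13, 0 genes passed (2251 at an unadjusted p under 0.05), and DESeq2 called 379. Leaving out single libraries gave 0 except for control replicate 3 of the subventricular zone (103) and of the bulb (124).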

How the data were processed

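Ribosome-bound mRNA was immunoprecipitated with anti-HA from homogenised tissue treated with cycloheximide, amplified from poly(A) tails by Smart-seq2 and sequenced on an Illumina HiSeq instrument, per the labels' protocols. The authors deposited raw counts per gene for each library; the tool that counted them and its strand setting are not given in the sources used here. The authors also deposited expected counts and TPM per gene, and the submitters' processing notes name Bowtie2 2.2.6, RSEM 1.2.21 and GRCm38. All columns matched a sample (0 were left unmapped), and 44548 of 45195 genes had a symbol.

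Counts were scaled by TMM and tested with edgeR 4.0.16 (R 4.3.3), quasi-likelihood test, in one fit over all 15 immunoprecipitate and control libraries after edgeR's filter on low counts, with Benjamini-Hochberg adjustment over 19066 genes and a threshold of 0.05. CPM are from the same scaling. Expected counts, rounded to whole numbers, and DESeq2 1.42.0 were alternatives. TPM of sorted cells were described only. Index barcodes were read from the sample labels. Genes named are the 3 markers and driver genes, the 10 largest changes in each direction among those past the threshold with at least 20 mean CPM in the higher group, no overlap between the groups and a symbol that is not a clone name of the Gm, Rik or AC/AL kind (5 for the other contrasts), and members of the gene lists. Some list members are not reported here by name. Members and lists were chosen with earlier results of these data known. Deviations from the group mean correlated at -0.05 and -0.05 between ENB and control replicates 1 and 2. For ENB and LNB replicates 1 and 2, which share animal numbers, these correlations were 0.09 and -0.01, and the main fit did not use that pairing. Deviations of the 2 ENB libraries mirror each other, and pairs that share animal numbers also gave values near 0. These correlations therefore cannot decide whether libraries were paired. Start windows came from a RefSeq promoter table. The relative length was added after the data were seen, and needed at least 10 expected counts. The code was tested on simulated data. Precision is limited by 2 and 3 libraries per group.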

Additional observations from a re-analysis of the deposited data

Results flagged for a closer look

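For these genes the enrichment in ENB differed from that at another stage by a test of the difference itself (edgeR, adjusted p under 0.05). Against NSC, which shares the control, the differences on the log2 scale were 5.43 for Prokr2, 3.23 for Dusp4 and 1.42 for Dcx on the higher side. They were -2.89 for Nr2e1, -2.33 for Lrp1 and -1.93 for Snhg8 on the lower side. Among ribosomal protein genes they were -2.12 for Rpl39, -1.96 for Rpl38, -2.05 for Rps12, -1.40 for Rpl37a, -1.84 for Rpl36a, -2.125 for Rpl30, -1.61 for Rps28 and -1.71 for Rps15.

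Against LNB over its own bulb control the differences were -2.77 for Rpl39, -3.05 for Rpl38, -2.30 for Rps12, -2.17 for Rpl36a, -2.37 for Rpl30 and -1.96 for Rps15. With RLE scale factors edgeR called 0 genes in this contrast.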

How the results depend on the processing

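The 290 genes of the ENB immunoprecipitate minus SVZ no-HA control became 636 without a filter on low counts, 102 when only the compared groups were fitted, 1354 with only the barcodes of the ENB libraries and 863 with DESeq2, and leaving out 1 library gave 1 to 224. The replicate block gave 193 there, 43 in the contrast with LNB, and the block left 20 neuroblast genes higher and 61 ribosomal protein genes lower. The ENB immunoprecipitate minus NSC immunoprecipitate (1579) gave 2400 without the filter, 918 with only the compared groups, 3929 with only the ENB barcodes and 2914 with DESeq2, and 354 to 962 with 1 ENB or NSC library left out. ENB over SVZ control minus LNB over OB control (76) gave 0 with RLE scale factors, with only the compared groups (2816 at an unadjusted p under 0.05) and without genes that overlap ribosomal RNA (2202). It gave 411 without the filter, 789 with the second barcode as a term, 1027 with only the ENB barcodes and 379 with DESeq2, and leaving out 1 library gave 0 to 124, with 1644 to 2402 at an unadjusted p under 0.05. The 23 neuroblast genes called higher became 12 with the second barcode as a term and 0 to 23 with 1 library left out, while their median kept its sign in every setting run (0.50 to 0.86). The 65 ribosomal protein genes called lower became 33 with only the compared groups and 0 to 66 with 1 library left out. Their median was -2.02 with only the ENB barcodes, where the 1 subventricular control left is the one with the highest summed level of these genes. It was -1.79 to -1.31 with 1 library left out. With the second barcode as a term, 15 of 27 list medians moved by more than the spread between libraries, and those of the GABA (-0.10), astrocyte (-0.32), oligodendrocyte (-0.49), microglia (-0.41), mural (0.08), glycolysis (-0.29) and blood (-0.82) lists changed sign. With only the ENB barcodes 8 of 27 moved. Fold changes of single genes over control were followed through the settings for 131 genes. These are the marker and driver genes, the largest changes of each contrast, and the list members called over control. Other named genes, such as Mapt, Gad1 and Notch1, were not followed. The fold change turned sign for 4 of the 131 genes. Nr2e1 was -0.89 with the barcode term, -0.41 with only the ENB barcodes, -0.016 with expected counts and -0.21 (without ENB replicate 1) to 0.37 with 1 library left out, which includes -0.18 without control replicate 2. With 1 library left out, Slco5a1 ran from -0.024 (without control replicate 1) to 0.99, Epha10 from -0.35 (without ENB replicate 2) to 0.47 and Prss56 from -0.22 (without ENB replicate 1) to 1.57. Epha10 was also -0.27 with only the ENB barcodes and -0.042 without control replicate 2. Of the other gene values 1590 kept direction and side of the threshold, 349 lost the call and 10 gained it. Where the construction does not show it (fewer samples or genes), the cause was not tested.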
